A study of Mus musculus with 12 samples.

Results

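The 7 genes described here, Hmgcs1, Sqle, Idi1, Fdps, Fdft1, Lss and Cyp51, encode enzymes that build cholesterol from acetyl-CoA, and they were followed in mouse liver across 3 ages. They were taken by name from the 53465 genes of a liver RNA-seq table, of which 28449 had at least 1 count. The labels give the livers as those of C57BL/6N mice, with 1 animal per library. Mice called young were 3 months old, those called middle-aged were 12 months old and those called aged were 18 months old, with 4 livers per age, and the labels name no treatment and no genetic change in any of them. A further 37 genes of the same pathway, covering other enzymes, the uptake of low-density lipoprotein (LDL), the control of the pathway, and sterol efflux and storage, were read beside the 7.

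Hepatocytes both make cholesterol and take it up as LDL. The first committed product is mevalonate, which is turned into isoprenoid units that are joined to squalene, and squalene is closed to lanosterol and trimmed to cholesterol. The transcription factor SREBP2, encoded by Srebf2, switches on the enzymes when sterols in the endoplasmic reticulum are low. SCAP escorts the factor to the Golgi, where proteases release it, and the INSIG proteins hold it back when sterols are plentiful.

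Promoters of genes under this control often carry a sterol regulatory element beside a CCAAT box bound by NF-Y and a GC box bound by Sp1. RefSeq promoter windows of 300 bases, from 250 before the transcription start to 50 after it, were at hand for 4 of the 7 genes. Sqle, Fdps and Fdft1 had no entry. The windows of the 4 genes with an entry are shown 5′ to 3′ on the strand of the gene, in build GRCm38.p6. Capitals mark TCACNCCAC, the only form of the sterol regulatory element searched for, and the boxes CCAAT and GGGCGG, all on either strand. No match of one overlapped a match of another in these windows.
Hmgcs1 (chr13:119690101-119690400, plus strand): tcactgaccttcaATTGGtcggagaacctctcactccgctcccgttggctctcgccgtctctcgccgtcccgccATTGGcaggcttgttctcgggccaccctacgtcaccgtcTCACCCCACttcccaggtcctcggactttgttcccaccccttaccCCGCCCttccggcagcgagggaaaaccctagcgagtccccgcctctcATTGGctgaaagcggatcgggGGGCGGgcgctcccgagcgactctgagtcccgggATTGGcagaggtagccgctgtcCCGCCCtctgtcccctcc
Idi1 (chr13:8885356-8885655, plus strand): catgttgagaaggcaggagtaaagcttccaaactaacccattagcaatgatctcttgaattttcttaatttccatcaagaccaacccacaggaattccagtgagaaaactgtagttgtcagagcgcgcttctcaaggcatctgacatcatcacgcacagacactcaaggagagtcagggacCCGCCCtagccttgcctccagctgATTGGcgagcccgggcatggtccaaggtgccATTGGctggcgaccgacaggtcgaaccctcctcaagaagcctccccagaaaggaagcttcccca
Lss (chr10:76531355-76531654, plus strand): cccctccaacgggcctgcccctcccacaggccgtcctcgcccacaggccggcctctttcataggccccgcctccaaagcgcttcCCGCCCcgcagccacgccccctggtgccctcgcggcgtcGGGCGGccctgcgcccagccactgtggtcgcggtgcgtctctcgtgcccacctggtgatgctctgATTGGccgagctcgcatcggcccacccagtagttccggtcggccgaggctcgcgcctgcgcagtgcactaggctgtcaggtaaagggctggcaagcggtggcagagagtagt
Cyp51 (chr5:4104648-4104947, minus strand): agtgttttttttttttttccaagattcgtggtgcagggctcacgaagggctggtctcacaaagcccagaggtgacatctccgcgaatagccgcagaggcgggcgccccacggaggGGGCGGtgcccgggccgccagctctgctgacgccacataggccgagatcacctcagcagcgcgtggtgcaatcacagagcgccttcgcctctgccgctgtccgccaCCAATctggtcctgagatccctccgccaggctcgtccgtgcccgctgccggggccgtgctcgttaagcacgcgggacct
The element TCACNCCAC lay in the Hmgcs1 window, beginning 137 bases before the start, and in none of the other 3. It was found in 1.24% of 32851 RefSeq promoter windows of this length and in 0 of the 32 windows matched among the 37 further pathway genes. All 4 windows held at least 1 CCAAT box and at least 1 GC box, against 37.4% and 35.7% of all windows. Among the 32 matched windows of the further pathway genes, 22 held a CCAAT box and 24 held a GC box. In Hmgcs1 there were 4 CCAAT boxes and 3 GC boxes. These are matches of letters only, and binding was not measured. Sterol regulatory elements spelled otherwise were not searched for, so a window without TCACNCCAC is not shown to lack one.

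The libraries held 8124312 to 10527159 gene counts each. In 3 libraries the counts stood apart from the rest. Young replicate 3 and middle-aged replicate 1 had counts for 22284 and 19982 genes, against 16361 to 17563 in the other 10, and young replicate 2 carried 19.2% mitochondrial counts (95% Wilson interval 19.13 to 19.19) and 10.6% spike-in counts (10.61 to 10.65, both for counting error only). No other library exceeded 10.68% and 6.23%. The spike-in share also differed by age, at 1.59% to 2.73% in middle-aged libraries, with every young library above that range. Aged libraries held 1.87% to 3.51%, and among them only replicate 1 lay above the lowest young library. The normalised counts below do not use the spike-ins, and the part of this difference in the results was not tested. Synthetic spike-in transcripts were present in other proportions in replicates 1 and 2 of every age than in replicates 3 and 4 (over the 31 spike-ins counted in all libraries, the lowest correlation inside a set was 0.997 and the highest across sets 0.925). No label names this division, which is called the spike-in sets here, and results are also given within each set. The summed level of 8 hepatocyte markers overlapped between ages, from 799538 to 1048220 normalised counts over all 12 livers, and none of the 8 was at 0 in any liver. The summed level of 5 erythroid markers was 22967 to 86366 in young livers, 12815 to 49844 in middle age and 9671 to 21230 in aged livers, without overlap between young and aged. The sums of 5 further marker lists (Kupffer, stellate, sinusoidal endothelial, bile duct and lymphoid cells) overlapped between all ages. Sums can hide single markers, and most of the hepatocyte sum was Alb. Sox9 of the bile duct list had 72.5 to 84.8 normalised counts in aged livers, 26.5 to 55.7 in young and 34.4 to 47.7 in middle-aged ones. For aged against young its log2 fold change was 0.86, and the other 4 lay below 0 (Krt19 -0.27, Krt7 -0.10, Epcam -0.77, Spp1 -0.59). Ass1 of the hepatocyte list had 46229 to 47023 in young and 31560 to 44586 in aged livers. In that list 6 of 8 were below 0, with Alb (0.31) and Cyp2e1 (0.27) above. Apoa1 and Lyve1 did not overlap between young and middle-aged livers, nor Vsig4 and Cd3e between middle-aged and aged ones. The part of the erythroid signal and of these markers in the results below was not tested.

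Levels are given as normalised counts, which are read counts divided by a size factor for each library. Divided by the exonic length, the mean level over the 12 livers ran from 1035 normalised counts per kilobase in Hmgcs1, through 529 in Cyp51, 433 in Fdft1, 190.2 in Idi1, 157 in Sqle and 72.2 in Lss, to 11.6 in Fdps. The ranges over livers of neighbours in this order overlapped down to Sqle, though 11 of 12 livers held Idi1 above Sqle and all 12 held each other pair in the stated order. Lss and Fdps lay below the gene before them in every liver, without overlap. This order depends on the length used, which is the union of all annotated exons (3505 bases in Idi1, 5546 in Sqle and 10787 in Lss). Undivided, the mean normalised counts of Sqle (869) and Lss (779) lay above that of Idi1 (667).

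The low value of Fdps is uncertain. Fdps encodes farnesyl diphosphate synthase, which joins isoprenoid units to the 15-carbon precursor of squalene, and its raw counts were only 28 to 71 per library. Of the 50-base stretches in its coding transcripts, 64.1% also occur in transcripts of other annotated genes. The largest share, 57.3%, is held in common with Gm43738 (chr3:89081939-89101099), a gene on the same strand that overlaps Fdps (chr3:89093588-89101959) and had 0 counts in all 12 libraries. A pseudogene on chromosome 10, Gm3571, shares 29.7% and had 3 to 13 counts. Smaller shares were found for Fdft1 (30.7%, of which 19.9% with Ctsb on the opposite strand), Idi1 (28.6%, mainly with pseudogenes), Hmgcs1 (12.6%, with an antisense gene), Lss (4.13%) and Cyp51 (3.17%), and none for Sqle.

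Whether the cholesterol synthesis genes differ between ages was asked by comparing the 3 pairs of ages and then all ages together. None of the 7 passed the test in any comparison at an adjusted p of 0.05 (DESeq2, Wald test for pairs and likelihood ratio test for 3 ages, Benjamini-Hochberg adjustment over all genes). The share of all genes tested that passed was 3.58% for aged against young (484 of 13527), 6.41% for middle-aged against young (727 of 11333), 1.14% for aged against middle-aged (117 of 10236) and 6.96% for the 3 ages (865 of 12430). At each of these shares fewer than 1 of 7 genes would be called. At an unadjusted p below 0.05 there were 1 (Sqle) for aged against young, 0 for middle-aged against young, 2 (Sqle and Fdft1) for aged against middle-aged and 0 for the 3 ages. Over all genes tested, 2154 of 13527, 2460 of 11333, 1017 of 10236 and 2554 of 12430 met that limit in the same order. The edgeR quasi-likelihood test also called 0 of 7 in each comparison, with 1, 0, 2 and 0 at an unadjusted p below 0.05.

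Hmgcs1 encodes the cytosolic HMG-CoA synthase, which adds an acetyl unit on the way to mevalonate (ENSMUSG00000093930, chr13:119690379-119708260, plus strand). Its normalised counts in replicates 1 to 4 were 6538, 3786, 3512 and 4971 at 3 months, 4557, 6249, 4189.8 and 6311 at 12 months, and 4693, 3001, 4494 and 4747 at 18 months. Young replicate 1 was the highest of all 12 and aged replicate 2 the lowest, and the 3 ages overlapped. The log2 fold change was 0.18 (95% interval -0.23 to 0.59) for middle-aged against young, -0.15 (-0.56 to 0.26) for aged against young and -0.33 (-0.74 to 0.08) for aged against middle-aged.

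Idi1 encodes isopentenyl-diphosphate isomerase, which interconverts the 2 isoprenoid building blocks (ENSMUSG00000058258, chr13:8885501-8892451, plus strand). Young livers held 1059, 529, 578 and 672 normalised counts, middle-aged livers 614, 803, 514 and 890.0, and aged livers 513, 477, 604 and 747. The highest liver was again young replicate 1 and the lowest aged replicate 2, within overlapping groups. Its log2 fold change was -0.01 (-0.47 to 0.45) for middle-aged against young, -0.28 (-0.73 to 0.18) for aged against young and -0.27 (-0.72 to 0.19) for aged against middle-aged.

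Fdps, with the uncertainty given above, had 59.4, 42.0, 61.6 and 32.2 normalised counts at 3 months, 52.6, 49.4, 51.2 and 71.2 at 12 months, and 46.2, 27.0, 44.6 and 46.5 at 18 months. Every aged liver lay below every middle-aged one, and both overlapped the young. The fold change of aged against middle-aged did not pass the test, at -0.45 on the log2 scale (-0.98 to 0.08, adjusted p = 0.638 by DESeq2). Against young the values were -0.25 (-0.79 to 0.30) in aged and 0.20 (-0.33 to 0.73) in middle-aged livers.

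Fdft1 encodes squalene synthase, the first step that serves sterols alone (ENSMUSG00000021273, chr14:63145150-63179578, minus strand). It stood at 2162, 1615, 1660.0 and 1857 normalised counts in young livers, at 2084, 2216, 1626 and 2234 in middle age, and at 1985, 1255, 1513 and 1776 in old age. Aged replicate 2 was the lowest liver, and the groups overlapped. The log2 fold change of aged against middle-aged was -0.32 (-0.62 to -0.02, adjusted p = 0.446 by DESeq2), with 0.16 (-0.14 to 0.46) for middle-aged against young and -0.16 (-0.46 to 0.14) for aged against young.

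Sqle encodes squalene epoxidase, an oxygen-dependent and sterol-sensitive control point of the pathway (ENSMUSG00000022351, chr15:59315077-59331192, plus strand). In young livers it had 1256, 839, 895 and 791 normalised counts, in middle-aged livers 904, 954, 800.0 and 1073, and in aged livers 789.8, 556, 692 and 874. Sqle had the widest gap of the 7 for aged against young, with a log2 fold change of -0.38 (-0.71 to -0.04, unadjusted p = 0.0277, adjusted p = 0.228 by DESeq2). Young replicates 1 and 3 lay above the highest aged liver, young replicates 2 and 4 lay inside the aged range, and the adjusted p did not pass. For aged against middle-aged the log2 fold change was -0.36 (-0.69 to -0.02, adjusted p = 0.445 by DESeq2), and for middle-aged against young it was -0.02 (-0.35 to 0.32).

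Lss encodes lanosterol synthase, which closes the sterol rings (ENSMUSG00000033105, chr10:76531588-76557138, plus strand). Young livers had 1037, 599, 624 and 708 normalised counts, middle-aged livers 768, 965, 662 and 1032, and aged livers 614, 513, 912 and 912. Aged replicates 1 and 2 lay below middle-aged replicates 1 to 4, and aged replicates 3 and 4 lay among them. The log2 fold change was -0.01 (-0.45 to 0.43) for aged against young, 0.21 (-0.23 to 0.65) for middle-aged against young and -0.22 (-0.65 to 0.22) for aged against middle-aged. Within the spike-in sets the aged against young value was -0.54 in replicates 1 and 2 and 0.45 in replicates 3 and 4, of opposite sign, and neither passed the test.

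Cyp51 encodes lanosterol 14α-demethylase, the first trimming step after ring closure (ENSMUSG00000001467, chr5:4081145-4104746, minus strand). Its normalised counts were 3091, 2076, 2313 and 2191 at 3 months, 2385, 2546, 2147 and 2739 at 12 months, and 2193, 1906, 1967 and 2484 at 18 months. The groups overlapped, with young replicate 1 again highest. The intervals were the narrowest of the 7, and the log2 fold change was 0.02 (-0.25 to 0.29) for middle-aged against young, -0.18 (-0.45 to 0.09) for aged against young and -0.20 (-0.47 to 0.07) for aged against middle-aged.

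**Figure D1:**
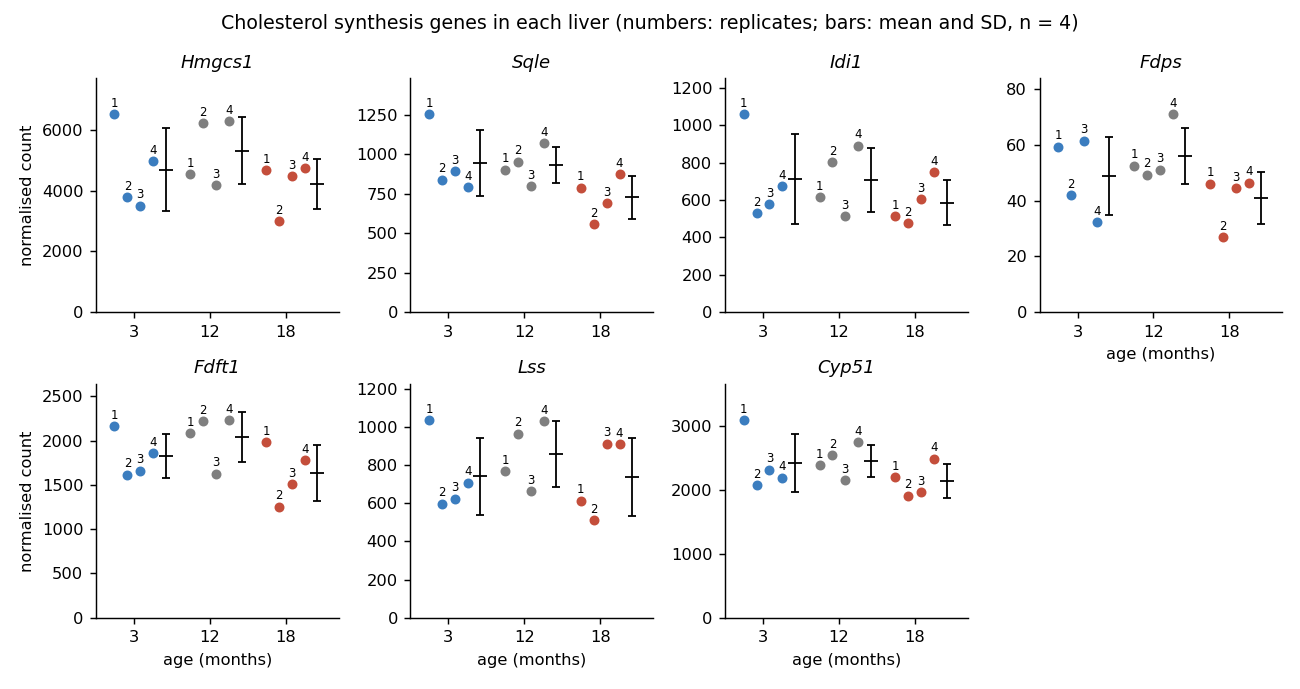
Normalised counts of the 7 cholesterol synthesis genes (y axis, from 0) in each liver at 3, 12 and 18 months (x axis), with replicate numbers beside the points and black bars for the mean and SD of 4 livers. Aged replicate 2 is the lowest liver in all 7 genes, and young replicate 1 is the highest in 5.

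Seen together, all 7 fold changes were below 0 for aged against middle-aged, with a median of -0.32 against 0.01 over all genes tested. All 7 were below 0 for aged against young as well, with a median of -0.18 against 0.00, and 5 of 7 were above 0 for middle-aged against young, with a median of 0.16 against 0.01. The comparisons share livers and the genes vary together, so these 7 signs are not 7 independent observations. Within the spike-in sets, replicates 1 and 2 gave -0.26 to -0.62 for aged against middle-aged, and replicates 3 and 4 gave -0.42 to 0.11. For aged against young all 7 were below 0 in replicates 1 and 2, but in replicates 3 and 4 Hmgcs1 (0.12), Idi1 (0.11) and Lss (0.45) were above 0. Without young replicate 1, Hmgcs1 and Lss were above 0 as well, at 0.05 and 0.20. The bulk tissue does not separate fewer hepatocytes from less RNA per hepatocyte.

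**Figure D2:**
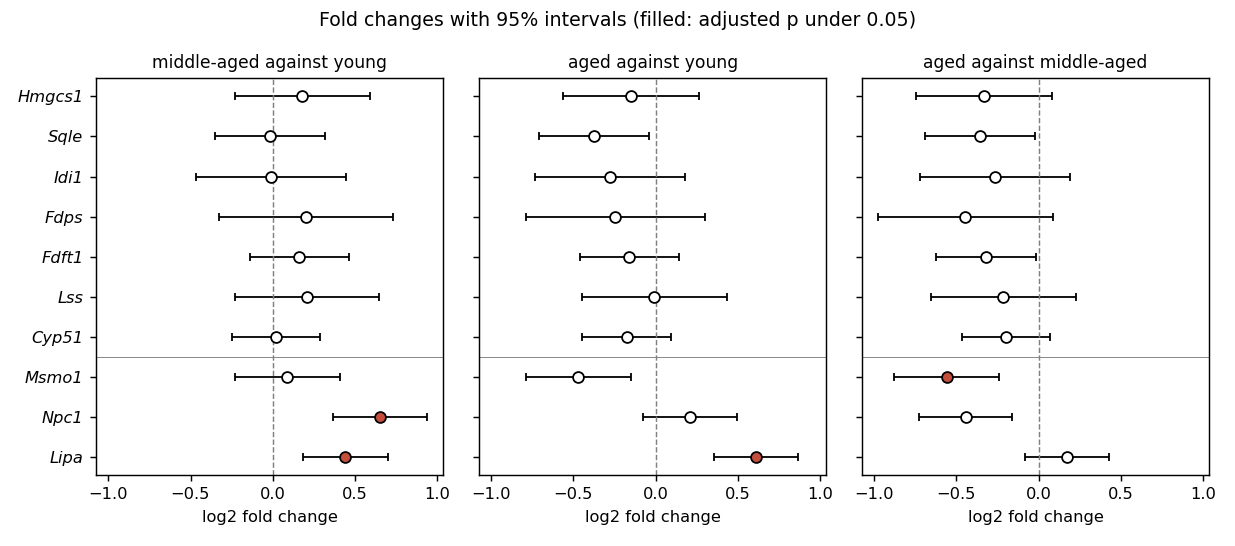
Log2 fold changes (x axis) of the 7 genes and of Msmo1, Npc1 and Lipa (rows) in the 3 pairs of ages, with 95% intervals as bars and filled points for an adjusted p under 0.05. All 7 open points lie left of 0 for aged against middle-aged, from -0.45 to -0.20, and the filled point of Msmo1 lies at -0.56.

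Part of the variation that the genes did show ran between livers of the same age, and it was shared. Averaged over the 7, the log2 deviation from each gene's own mean was 0.46 in young replicate 1, 0.40 in middle-aged replicate 4 and 0.25 in middle-aged replicate 2, and in these 3 livers all 7 genes lay above their means. It was -0.55 in aged replicate 2 and -0.20 in young replicate 2, where all 7 lay below. The other livers lay between -0.13 and 0.09. Young replicate 1 held between 1.62 times (Cyp51) and 2.26 times (Sqle) the level of aged replicate 2, a liver of another age.

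Over the 12 livers the 21 pairs of genes correlated with Pearson's r of 0.53 to 0.94 (median 0.80) and Spearman's rho of 0.38 to 0.92 (median 0.79). After subtracting each age's mean the median r was 0.79 (0.41 to 0.95). Without young replicate 1 and middle-aged replicate 4, the 2 livers farthest from the median of the average deviation, it was 0.62 (0.24 to 0.87), so part of the relation rests on those livers. The 4 lowest values of r over 12 livers involved Fdps, the gene with fewest counts, and the 15 pairs without it ranged from 0.67 to 0.94. The points share libraries, size factors and depth, and are given as a description.

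The scatter within ages was larger than usual for some steps. The within-age SD on the log2 scale was 0.37 in Idi1, 0.36 in Lss and 0.35 in Hmgcs1, at the 90.8, 90.1 and 88.9 percentiles of the 8888 genes whose mean reached 50 normalised counts, where the median SD was 0.19. Sqle (0.26) and Fdft1 (0.23) lay at the 74.7 and 67.9 percentiles. Cyp51, at 0.20 and the 54.1 percentile, was close to the middle of all genes, and Fdps fell under the count minimum.

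The genes whose pattern over the 12 livers was most like the mean of the 7 (Pearson's r with their average z-score, 8875 other genes ranked) were led by sterol enzymes. Dhcr7, the 7-dehydrocholesterol reductase, ranked first with r = 0.93. It was followed by Tm7sf2 (0.87), a sterol reductase acting just after Cyp51, by Acsl4 (0.86), which activates long-chain fatty acids, and by Nsdhl (0.85), which removes methyl groups from the ring. Msmo1 (0.80) had rank 7, with Tab3 (0.83), Hivep1 (0.82), Zfp809 (0.80), Abhd14b (0.78) and Azin1 (0.78) as the remaining 5 of the first 10. The median r was 0.77 over the post-lanosterol enzymes and 0.53 over the other mevalonate enzymes, against 0.02 over all genes ranked. LDL uptake genes (-0.06) and sterol efflux and storage genes (0.13) had lower medians, and fatty acid synthesis genes had 0.37. The median was 0.39 over the SREBP control genes and 0.22 over the sterol-linked ubiquitin ligases. Fasting response genes and clock genes, described below, had medians of -0.07 and 0.01.

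**Figure D3:**
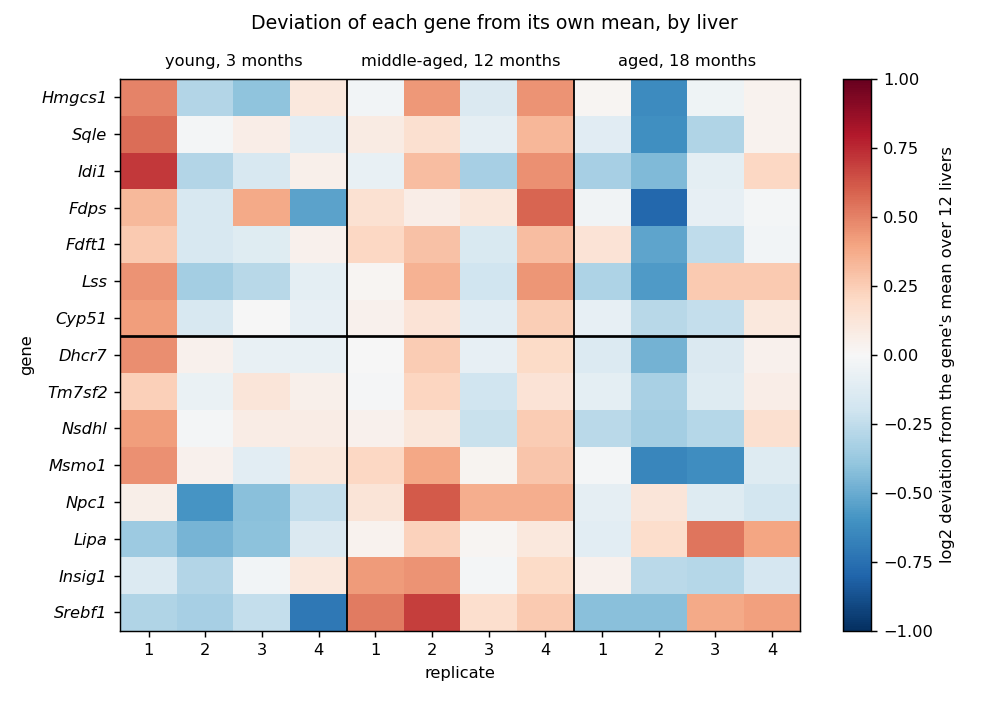
Log2 deviation of each gene (rows) from its own mean over the 12 livers (columns, by age and replicate), red above and blue below the mean, with the 7 genes above the black line and other pathway genes under it. The column of aged replicate 2 is blue in all 7 rows and that of young replicate 1 red, while Lipa is blue in all 4 young livers.

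Beyond the 7, the 37 further pathway genes were counted by comparison, with 36 tested because Idi2 was near 0. The 37 were chosen with earlier results of these data known, so counts beside the background are a description. For aged against young 2 were called higher and 0 lower (background 3.58%), for middle-aged against young 5 higher and 1 lower (6.41%), and for aged against middle-aged 1 higher and 2 lower (1.14%). The median log2 fold changes were -0.01, 0.09 and -0.12, against 0.00, 0.01 and 0.01 over all genes tested. With edgeR the counts were 2 (Lipa and Soat2), 1 (Npc1) and 0, with 8, 12 and 5 at an unadjusted p below 0.05. DESeq2 gave 8, 13 and 7 at that limit, against 2154 of 13527, 2460 of 11333 and 1017 of 10236 over all genes tested. Without the 3 libraries that stand apart the counts called were 0, 0 and 1 with DESeq2, where 2 young livers were left. The gene called there was Npc1, lower in aged livers at -0.52 (adjusted p = 0.0259 by DESeq2).

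Among the other mevalonate enzymes tested (Acat2, Mvk, Pmvk, Mvd, Ggps1) none was called in any pair of ages. Of 9 post-lanosterol enzymes, Msmo1, the sterol-C4-methyl oxidase, was the one called. It had 2419.6, 1561, 1597 and 2245 normalised counts in aged against 2839, 3207, 2507 and 2975 in middle-aged livers, without overlap, and it fell with a log2 fold change of -0.56 ± 0.16 (SE, adjusted p = 0.0489 by DESeq2, 0.227 by edgeR). Young livers held 3364, 2528, 2286 and 2660.3, overlapping both. The value was close to the threshold, and leaving out any of 9 of the 12 livers ended the call.

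On the uptake side, 2 of 5 genes were called for middle-aged against young, both higher in middle age (background 6.41%). Npc1, which moves LDL cholesterol out of lysosomes, had 685, 438, 493 and 558 normalised counts in young and 719.8, 1006, 849 and 846 in middle-aged livers. The groups did not overlap, and the log2 fold change was 0.65 ± 0.15 (SE, adjusted p = 0.000783 by DESeq2, 0.0286 by edgeR). In aged livers it had 617, 717, 600.4 and 580.1, below every middle-aged liver, but aged against middle-aged did not pass (-0.44, -0.73 to -0.16, adjusted p = 0.113 by DESeq2).

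Lipa, the lysosomal acid lipase that frees cholesterol from its esters, was called for both older groups against young. It had 1448, 1346, 1399 and 1687 normalised counts at 3 months, 1909, 2181, 1889.6 and 2004 at 12 months, and 1734, 2101, 2696 and 2451 at 18 months. Neither older group overlapped the young. It rose with a log2 fold change of 0.44 in middle-aged (adjusted p = 0.0194) and 0.61 in aged livers (adjusted p = 0.000464, both DESeq2), of which the first did not pass with edgeR (0.0782).

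Without the 3 libraries that stand apart (young replicates 2 and 3 and middle-aged replicate 1), neither was called for middle-aged against young, at log2 fold changes of 0.53 for Npc1 and 0.37 for Lipa. Within the spike-in sets Npc1 was at 0.62 in replicates 1 and 2 and 0.68 in replicates 3 and 4, and passed in the second. Lipa was at 0.55 and 0.32, and passed in neither. Leaving out young replicate 2 or 3, or middle-aged replicate 2 or 4, ended the Lipa call for middle age.

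Among the regulators, the SREBP2 gene Srebf2 was not called in any pair. It had 528 ± 49.1, 625 ± 42.7 and 587 ± 23.5 normalised counts from the youngest to the oldest group (SD, n = 4 each). For middle-aged against young its fold change was 0.24 on the log2 scale (0.07 to 0.42, adjusted p = 0.0790 by DESeq2). Scap, at 1276 ± 167, 1294 ± 113 and 1118 ± 172, was not called in any pair either. Srebf1, the related gene that drives fatty acid synthesis, rose from 1833, 1788, 1910.0 and 1369.7 in young to 3229.9, 3637, 2536 and 2696 in middle-aged livers, a log2 fold change of 0.81 ± 0.20 (adjusted p = 0.00382 by DESeq2, 0.0506 by edgeR). In aged livers Srebf1 divided by spike-in set, at 1682 and 1683 in replicates 1 and 2 and at 2938 and 2991 in replicates 3 and 4.

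The 2 retention genes moved in opposite directions between middle-aged and aged livers. Insig1, itself a target of SREBP2, had 3181, 2862, 3441 and 3762 normalised counts at 3 months, 4707, 4767, 3456 and 3988 at 12 months and 3599, 2896, 2866 and 3109.9 at 18 months. It fell between middle and old age by 0.44 on the log2 scale (adjusted p = 0.0444 by DESeq2, 0.227 by edgeR), and 8 of 12 single livers ended that call when left out. Insig2, which is known to respond to fasting and insulin instead, fell from 1752 ± 181 in young to 1075 ± 142 in middle-aged livers (log2 fold change -0.70, adjusted p = 0.00681) and was at 1756 ± 550.1 in aged ones (0.71 against middle-aged, adjusted p = 0.0221, both DESeq2). With edgeR neither passed, at adjusted p = 0.0546 and 0.185.

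The latter Insig2 call ended when any of 5 livers was left out (middle-aged replicate 1, 2 or 4 or aged replicate 3 or 4), with a lowest log2 fold change of 0.50 without aged replicate 3, which held 2472 normalised counts. Within the spike-in sets it was 0.35 in replicates 1 and 2, not passed, and 0.99 in replicates 3 and 4, passed. Mbtps1, the site-1 protease that first cuts SREBP, rose by 0.26 on the log2 scale between young and middle-aged livers (adjusted p = 0.0368 by DESeq2, 0.111 by edgeR), a call that 9 of 12 single livers ended when left out. The sterol-linked ubiquitin ligase genes Rnf139 and Rnf145 held no call in any pair.

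Of the 8 sterol efflux and storage genes, Soat2, which esterifies cholesterol in hepatocytes, was the one called. It had 177, 131, 142 and 187 normalised counts at 3 months, 217, 233, 206 and 242 at 12 months and 232, 272, 226 and 283 at 18 months. Both older groups lay above all young livers, at log2 fold changes of 0.48 (adjusted p = 0.0194) and 0.66 (adjusted p = 0.000566, both DESeq2), of which the first did not pass with edgeR (0.0645). The first call also ended without young replicate 2 or 3 or middle-aged replicate 2 or 4, and within the spike-in sets neither comparison passed. Without the 3 libraries that stand apart, neither the aged against young value of Soat2 (0.47, adjusted p = 0.279) nor that of Lipa (0.52, adjusted p = 0.162 by DESeq2) passed. The transporters Abca1, Abcg1, Abcg5 and Abcg8 and the LXR receptor genes Nr1h3 and Nr1h2 held no call.

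**Figure D4:**
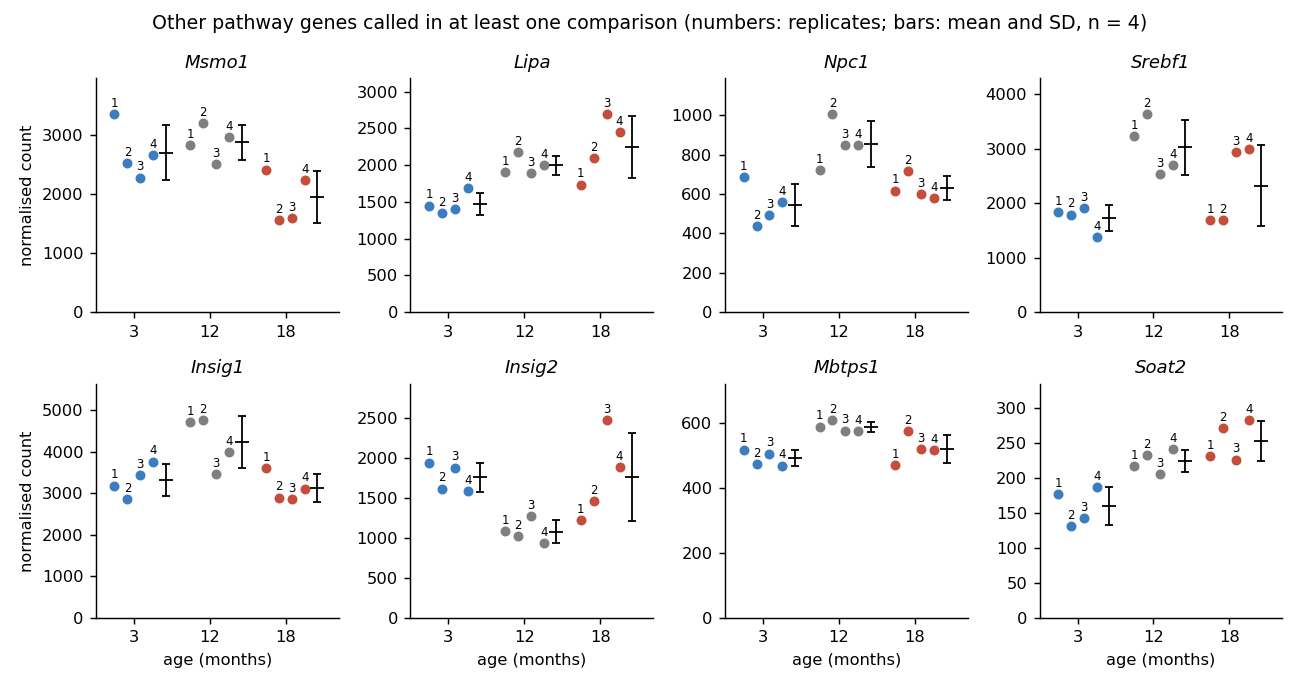
Normalised counts (y axis, from 0) at 3, 12 and 18 months (x axis) of the 8 further pathway genes called in at least one pair of ages, with replicate numbers beside the points and bars for the mean and SD of 4 livers. Middle-aged livers are highest for Npc1 (719.8 to 1006) and lowest in mean for Insig2, aged livers are lowest in mean for Msmo1, and young livers are lowest for Lipa and Soat2.

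Cholesterol synthesis is known to follow feeding and the time of day, so fasting, fatty acid and clock genes were read beside it. These lists were chosen with earlier results of these data known, so their counts beside the background are a description and no test of the lists. Between middle-aged and aged livers 7 of 12 clock genes tested were called, against a background of 1.14%. Per3, a circadian repressor, was 2.31 log2 units lower in aged than in middle-aged livers (adjusted p = 1.78e-07 by DESeq2), Nfil3, another circadian repressor, was 1.53 higher (adjusted p = 1.65e-08) and Tef, an activator of output genes, was at -1.27 (adjusted p = 5.77e-06). For middle-aged against young 5 of 13 were called (background 6.41%), and for aged against young 1 of 14 (3.58%). With edgeR 5 clock genes were called for aged against middle-aged, 4 for middle-aged against young and 0 for aged against young.

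Of 8 fasting response genes 3 were called for aged against young, all higher in aged livers (background 3.58%). Cyp4a14, a fatty acid hydroxylase, was at 6.17 on the log2 scale (adjusted p = 0.00022 by DESeq2), with 3452 and 1204 normalised counts in aged replicates 3 and 4, 20.1 and 113 in aged replicates 1 and 2, and at most 34.0 in young livers. Its paralogue Cyp4a10 had 56.0 to 227 normalised counts in young and 262 to 3422 in aged livers (adjusted p = 0.00155). Fgf21, a hormone of the fasted liver, had 0 counts in 2 of 4 young livers and 9.03 to 33.2 normalised counts in aged ones (adjusted p = 0.00213, both DESeq2), and edgeR did not test it at these low counts. The other 5 were not called, with Pdk4 at 1.19 and Cpt1a at 0.26 on the log2 scale, and Pck1 (-0.80), Angptl4 (-0.39) and G6pc (-0.07) below 0. The 9 fatty acid synthesis genes held no call in any pair, though all 9 values for aged against young were above 0, with a median of 0.62. In all 9, aged replicates 3 and 4 lay above aged replicates 1 and 2, as for Fasn, the fatty acid synthase, with 4075, 4105, 10103 and 11583 normalised counts in aged replicates 1 to 4 and 3132 to 6196 in young livers. For middle-aged against young 8 of 9 were above 0, with a median of 0.69 over the 8 tested and 4 at an unadjusted p below 0.05. Over all genes tested 2460 of 11333 met that limit. The study's methods state free access to food. Time of collection and any fasting before it were not given in the sources used here, and their part in the values above was not tested.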

How the data were processed

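Liver RNA of 12 mice was measured by RNA-seq, with groups and replicate numbers read from the titles. The authors deposited 1 table of raw read counts per gene, as whole numbers, without normalisation. The submitters' processing notes name STAR 2.5.2b, SAMtools 1.9 and featureCounts with build mm10 (GRCm38), and the counting options were not given in the sources used here. The protocol describes total RNA and directional libraries from young and old livers only, the design text counts 3 replicates per age where the table has 4, and the study's methods also name a public atlas as a source of liver RNA-seq, so the origin and preparation of the 12 libraries are uncertain and strain is given as labelled.

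From these counts, the 92 spike-in rows were left out and the 28449 genes with at least 1 count were fitted with DESeq2 1.42.0 (R 4.3.3) in 1 model of age group over all 12 livers, with median-of-ratios size factors, the tests given in the report, and a threshold of 0.05 on the adjusted p. Gene positions and exonic lengths (union of exons) came from GENCODE M21, and promoters from RefSeq. The 7 genes and all lists were chosen with earlier results of these data known. The 7 were always described, as were other pathway genes called in a pair of ages, with Srebf2, Insig1 and Scap in any case, and up to 3 genes of each comparison list by lowest adjusted p. Some genes of the lists are not reported here and were left out of their counts and of the likeness ranking, though not out of the fit. Likeness was measured on log2 of the normalised count plus 1. Alternatives were the edgeR 4.0.16 quasi-likelihood test, TMM factors, a minimum of 10 counts in 4 samples, independent filtering switched off, separate fits for each pair of ages, a spike-in set term, each spike-in set alone, a replicate block and leaving out each liver. Leaving out the 3 libraries that stand apart and edgeR with the block were added after seeing the data. Labels say that each library is 1 animal. The p-values judge the difference between ages against the spread between libraries of an age, estimated over the 3 ages together. In that spread, differences between animals and between spike-in sets are held together. The fits were also run on counts simulated independently for each gene and library, without spike-in sets or deviations shared between genes of a liver. That run cannot show how the fits behave where these occur.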

Additional observations from a re-analysis of the deposited data

Results flagged for a closer look

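In each age group of 4 livers, 17 genes (the 7, the 8 further pathway genes called in a pair of ages, Srebf2 and Scap) were screened for a liver whose gap to the nearest other liver took up most of the group's range. Of 51 groups 3 met the limit of Dixon's test, and chance alone meets it in about 1 of 20 groups. Aged replicate 2 was low in Hmgcs1, at 3001 normalised counts against 4494 to 4747 in the other aged livers, and in Fdps, at 27.0 against 44.6 to 46.5. Middle-aged replicate 4 was high in Fdps, at 71.2 against 49.4 to 52.6. The Fdps values rest on few counts. No test was made of what sets these livers apart.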

How the results depend on the processing

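Under all 23 alternatives 0 of the 7 genes passed in any comparison, with a lowest adjusted p of 0.126. Of 483 fold changes of the 7 recomputed, 25 changed sign, none of them passing the threshold and the largest at 0.45. For aged against young these were Hmgcs1 (0.12 in replicates 3 and 4, -0.27 to 0.051 without 1 liver), Idi1 (0.11 in replicates 3 and 4) and Lss (0.011 with TMM factors, 0.45 in replicates 3 and 4, -0.13 to 0.20 without 1 liver). For middle-aged against young they were Hmgcs1 (-0.045 without the 3 libraries), Sqle (0.0010 with TMM factors, 0.14 in replicates 3 and 4, -0.096 to 0.15 without 1 liver), Idi1 (0.0073 with TMM factors, 0.0020 with the replicate block, 0.16 in replicates 3 and 4, -0.14 to 0.25 without 1 liver) and Cyp51 (-0.067 in replicates 1 and 2, -0.093 without the 3 libraries, -0.045 to 0.16 without 1 liver). For aged against middle-aged it was Lss (0.11 in replicates 3 and 4). Young replicate 1 alone turned 4 of these when left out (Hmgcs1, Lss, Sqle and Idi1).

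The count of the 37 further genes called was 2 for aged against young, and became 4 with the replicate block, 0 in replicates 1 and 2, 0 without the 3 libraries, 1 in edgeR with the block, and 2 to 5 without 1 liver (5 without aged replicate 1). For middle-aged against young it was 6, and became 1 with edgeR, 3 in replicates 1 and 2, 0 without the 3 libraries, 0 in edgeR with the block, and 3 to 10 without 1 liver (10 without young replicate 1, and 3 without young replicate 2 or 3 or middle-aged replicate 2 or 4). For aged against middle-aged it was 3, and became 0 with edgeR, 0 without independent filtering, 1 in replicates 1 and 2, 1 in replicates 3 and 4, 1 without the 3 libraries, 0 in edgeR with the block, and 0 to 3 without 1 liver (0 without middle-aged replicate 1, 2 or 4 or aged replicate 3 or 4, and 1 without aged replicate 2). The cause was not tested. Same-numbered livers are different animals and their deviations correlated between -0.30 and 0.16 (12 pairs, median -0.04), so the numbers do not pair them. Over all genes 484, 727, 117 and 865 were called, and 172, 280, 13 and 234 with edgeR.

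A fold change of the 7 that did not pass is not shown to be 0, and its 95% interval gives the range of values that 4 livers per age leave possible. Fdps is further limited by 28 to 71 counts.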
